A study of Cyclotella cryptica with 27 samples.

Results

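The genes described here are the DNA replication and repair genes of the centric diatom Cyclotella cryptica, a unicellular alga with a silica wall that grows over a wide range of salinity. They are the 100 genes, of 21250 in the count table, whose protein name holds one of a set of words for this machinery, such as DNA polymerase, DNA repair, DNA primase, DNA ligase, replication factor or ribonucleoside-diphosphate reductase. Names were deposited for 5810 genes, and 13 of the 100 were matched only by words in parentheses within a longer name. The names are those of the closest proteins in other organisms, so the roles given are known from those organisms and not from this diatom. By role the list held 4 genes of nucleotide supply, 7 of the clamp loader and single-strand binding, 19 of primase and DNA polymerases, 11 of replication licensing and initiation, 15 ligases and topoisomerases, 7 of mismatch repair, 3 photolyases and 34 of other repair. Roles were set by words in the name, so the topoisomerases include a topoisomerase 2-binding protein, CCRYP_016605. Other repair took every remaining gene, such as the replication helicase/nuclease DNA2, CCRYP_012331, and the RNA demethylase ALKBH9B, CCRYP_003634.

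DNA replication begins where the MCM helicase, loaded on DNA before S phase, is activated together with the GINS complex and unwinds the helix. Replication protein A coats the exposed single strands, primase and DNA polymerase alpha lay down primers, replication factor C loads the sliding clamp, and DNA polymerases epsilon and delta copy the leading and lagging strands from deoxyribonucleotides made by ribonucleotide reductase. Repair enzymes remove mismatches, ultraviolet lesions, alkylated bases and breaks, and diatoms, which have plastids and mitochondria with their own DNA, also carry proteins of bacterial type for these tasks.

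Polyadenylated RNA was sequenced from strain CCMP332 at 9 points. In 8 groups, cells grown at a salinity of 24 ppt and 15 °C had been spun down and put into artificial seawater medium of 0 ppt, and were sampled at 0 min, 15 min, 30 min, 1 h, 2 h, 4 h, 8 h and 10 h. The remaining group was a control sampled at 0 min in medium of 24 ppt. That control was sampled at one time, so freshwater, handling, elapsed time and time of day cannot be told apart in any comparison with it.

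Each group had 3 labelled replicates, but many count columns were arithmetic copies or means of others in the same group, and 16 of the 27 columns were independent. The seawater control, 0 min and 1 h had 1 independent column each, 10 h had 3, and the other 5 times had 2. The labels do not say whether replicates came from separate cultures, so p-values measure the spread between these columns, which may be technical. The 16 columns held 2809130 to 6889349 gene counts, the most in 30 min replicate 2, and the 100 genes took 0.320% to 0.466% of them. Levels are counts scaled by TMM to a common library size (CPM) and not divided by gene length, so they compare columns and not genes. In such bulk RNA, fewer cells in a state and less RNA per cell cannot be told apart.

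The replication and repair genes differed from the seawater control mainly at 30 min and 1 h in freshwater. Some genes of the replication fork rose by about 0.8 to 2 on the log2 scale. They were the 32 kDa subunit of replication protein A, 2 of the 4 ribonucleotide reductase genes, MCM6, primase and subunits of DNA polymerases delta and epsilon. Other fork genes were not called at 30 min, among them 10 of the 11 licensing genes and the catalytic subunit of DNA polymerase alpha. The genes that fell at 30 min included another fork gene, the large subunit of replication factor C. The others were those of RecN and RadA, an NAD-type DNA ligase, a REV1 gene, the catalytic subunit of DNA polymerase zeta and a chloroplastic DNA polymerase I. Of the 99 genes tested, 20 had an adjusted p below 0.05 at 30 min, 13 higher and 7 lower, where 30.7% of all 12501 genes tested were called, 14% higher and 16.7% lower. Adjusted p always refers to the quasi-likelihood F test of edgeR, corrected by Benjamini-Hochberg over all genes tested, and genes below 0.05 are said to have risen, fallen or been called. The median log2 fold change at 30 min was 0.37 over the 99 genes, against 0.085 over all genes, and 71 of the 99 were above 0.

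At 1 h, 13 of the 99 genes were called, 10 higher and 3 lower, where the background was 18.4%, with 9.79% higher and 8.61% lower. Their median log2 fold change was 0.17, against 0.046 over all genes. At 2 h only the NAD-type ligase CCRYP_000326 was called, lower, against a background of 4.89% and of 1.95% for lower genes. At 4 h only the catalytic subunit of DNA polymerase epsilon, CCRYP_017887, was called, higher, against a background of 3.77% and of 2.7% for higher genes. At 10 h, 2 genes were called lower, against a background of 8.33% and of 3.64% for lower genes. No replication or repair gene was called at 0 min, 15 min or 8 h by edgeR, DESeq2 or limma-voom, where edgeR's background was 0%, 0.088% and 0.024%. At an unadjusted p below 0.05, edgeR counted 6 of the 99 genes at 0 min, 6 at 15 min and 4 at 8 h.

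Between freshwater times that did not use the single control column, 12 of the 99 genes were called at 30 min against 15 min, 8 higher and 4 lower, where the background was 24.2%, with 10.7% higher and 13.5% lower. At 8 h against 30 min, 29 were called, 7 higher and 22 lower, where the background was 35.6%, with 16.2% higher and 19.4% lower. In this comparison the median log2 fold change of the 99 genes was -0.32, against -0.050 over all genes, and 26 of the 99 were above 0. At 10 h against 8 h, 2 genes were called, both higher, where the background was 3.66% overall and 2.77% higher. Over all 9 groups, 29 of the 99 genes differed, against a background of 40.9%. By role these were 3 of 4 nucleotide supply genes, 5 of 7 clamp loader and single-strand binding genes, 8 of 19 primase and polymerase genes and 3 of 11 licensing genes, against 2 of 14 ligases and topoisomerases, 1 of 7 mismatch repair genes, 1 of 3 photolyases and 6 of 34 other repair genes.

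**Figure D1:**
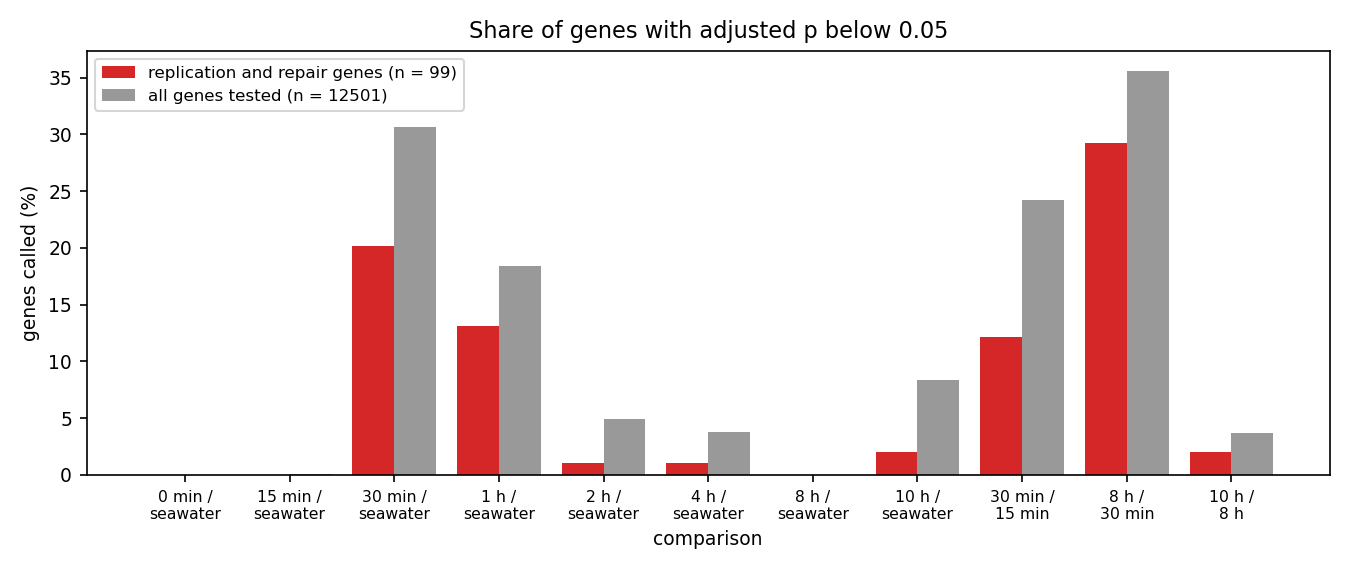
Percent of genes with an adjusted p below 0.05 (y axis) in each of 11 comparisons (x axis), for the 99 replication and repair genes tested (red) and all 12501 genes tested (grey). At 30 min against the seawater control the red bar stands for 20 of 99 genes and the grey bar is at 30.7%. Calls are near or at 0 at 0 min, 15 min and 8 h.

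The split between higher and lower calls depended on the scaling of the columns and on the tool. With library size alone in place of TMM, the median of all genes at 30 min was 0.34 and that of the 99 genes was 0.63 on the log2 scale. The calls were then 25 higher and 1 lower at 30 min, where 20.8% of all genes were higher and 7.09% lower. At 1 h they were 12 higher and 0 lower, where 15.5% of all genes were called. They were 24 higher and 0 lower at 30 min against 15 min, where 25.4% of all genes were called. At 10 h they were 2 higher and 0 lower, where 5.95% of all genes were higher and 1.16% lower. DESeq2 called 7 higher and 7 lower at 30 min, where it called 10.2% of all genes higher and 15.4% lower. Without 30 min replicate 2, the deepest column, the calls were 6 higher and 0 lower at 30 min, where 8.97% of all genes were higher and 4.62% lower. There were 2 higher and 0 lower at 30 min against 15 min, where 5.23% were higher and 3.86% lower. At 8 h against 30 min they were then 3 higher and 12 lower, where 4.66% of all genes were higher and 11.4% lower. With the 0 min column as baseline, 4 genes were called at 30 min and 7 at 1 h, where the background was 6.46% and 5.48%, and 0 at 2 h, 4 h and 10 h, where it was 1.47%, 1.82% and 0.864%.

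**Figure D2:**
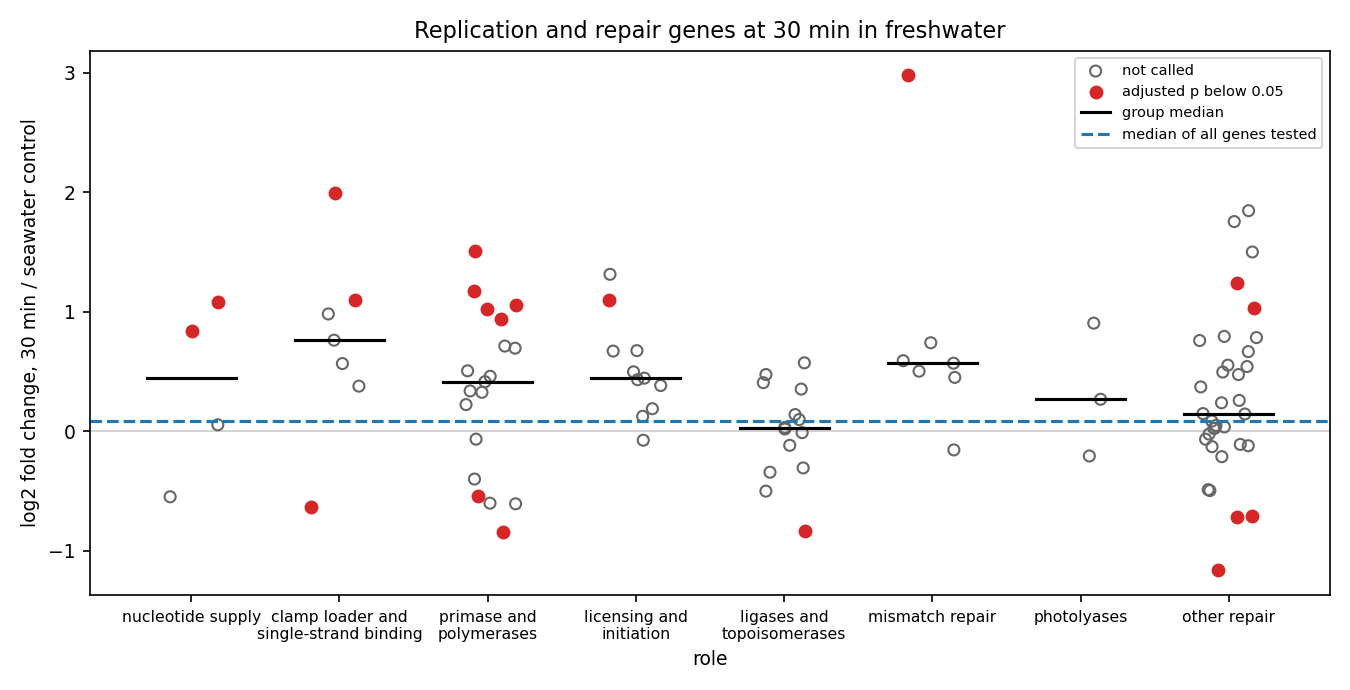
Log2 fold change at 30 min over the seawater control (y axis) for each tested gene, by role (x axis). Filled red points have an adjusted p below 0.05, black bars are the median of each role and the dashed line is the median of all genes tested, 0.085. The medians of the clamp loader group, 0.76, and the mismatch repair group, 0.57, lie above the line, and that of ligases and topoisomerases, 0.024, lies below it.

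Ribonucleotide reductase reduces ribonucleotides to the deoxyribonucleotides used in DNA synthesis, with a large subunit that holds the active site and a small subunit that carries the radical. The diatom had 2 genes named for each subunit, and 1 of each rose at 30 min and 1 h. The large-subunit gene CCRYP_006726 had 27.2 CPM in seawater, 27.4 at 0 min, 27.5 and 28.5 at 15 min, 52.3 and 44.4 at 30 min, 75.5 at 1 h, 36.8 and 36.8 at 2 h, 28.4 and 24.2 at 4 h, 30.5 and 30.3 at 8 h, and 25.1, 34.3 and 27.8 at 10 h. All 3 columns of 30 min and 1 h lay above every other column, with 1 h the highest. Its log2 fold change was 0.84 ± 0.25 (SE) at 30 min (adjusted p = 0.0152) and 1.47 ± 0.29 at 1 h (adjusted p = 0.00154), and -0.67 ± 0.20 at 8 h against 30 min (adjusted p = 0.00984). The 30 min call was lost without 30 min replicate 2, at a log2 fold change of 0.79 and an adjusted p of 0.0702. So was the fall at 8 h against 30 min, to -0.58 and an adjusted p of 0.106, and without 8 h replicate 2 or 3 its adjusted p was 0.0548 or 0.0646.

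The small-subunit gene CCRYP_007066, named M2 after its animal counterpart, had 45.9 CPM in seawater, 58.2 at 0 min, 68.6 and 55.5 at 15 min, 112 and 79.9 at 30 min, 113 at 1 h, 79.1 and 70.8 at 2 h, 58.0 and 68.1 at 4 h, 46.7 and 54.0 at 8 h, and 57.5, 60.8 and 59.5 at 10 h. The columns of 30 min and 1 h were again the highest, although the lower 30 min column was close to the higher 2 h column. The change on the log2 scale was 1.08 ± 0.24 at 30 min (adjusted p = 0.00234), 1.31 ± 0.27 at 1 h (adjusted p = 0.00276) and -0.94 ± 0.19 at 8 h against 30 min (adjusted p = 0.000423).

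The other large-subunit gene, CCRYP_018258, had 78.2 CPM in seawater, 51.1 at 0 min, 82.2 and 70.5 at 15 min, 83.5 and 78.5 at 30 min, 88.1 at 1 h, 64.9 and 79.5 at 2 h, 47.5 and 54.3 at 4 h, 57.7 and 69.7 at 8 h, and 49.2, 56.9 and 62.3 at 10 h. It differed over the 9 groups (adjusted p = 0.0107) but in none of the 11 comparisons, with a log2 fold change of 0.05 ± 0.22 at 30 min and 0.17 ± 0.26 at 1 h. The other small-chain gene, CCRYP_010464, was highest in the seawater control, at 95.1 CPM, and lay between 49.7 and 86.8 CPM in the freshwater columns, without a call in any comparison (adjusted p over the 9 groups = 0.243). Its log2 fold change was -0.55 ± 0.23 at 30 min and -0.43 ± 0.27 at 1 h. The ratio of counts between genes of 1 subunit does not depend on how columns are scaled. The ratio of CCRYP_006726 to CCRYP_018258 was 0.565 to 0.858 in the 3 columns of 30 min and 1 h, against 0.335 to 0.603 in the other 13. The ratio of CCRYP_007066 to CCRYP_010464 was 1.14 to 1.86, against 0.483 to 1.22. Both ranges overlapped. These and the ratios below were chosen after the values were seen and are given without a test.

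**Figure D3:**
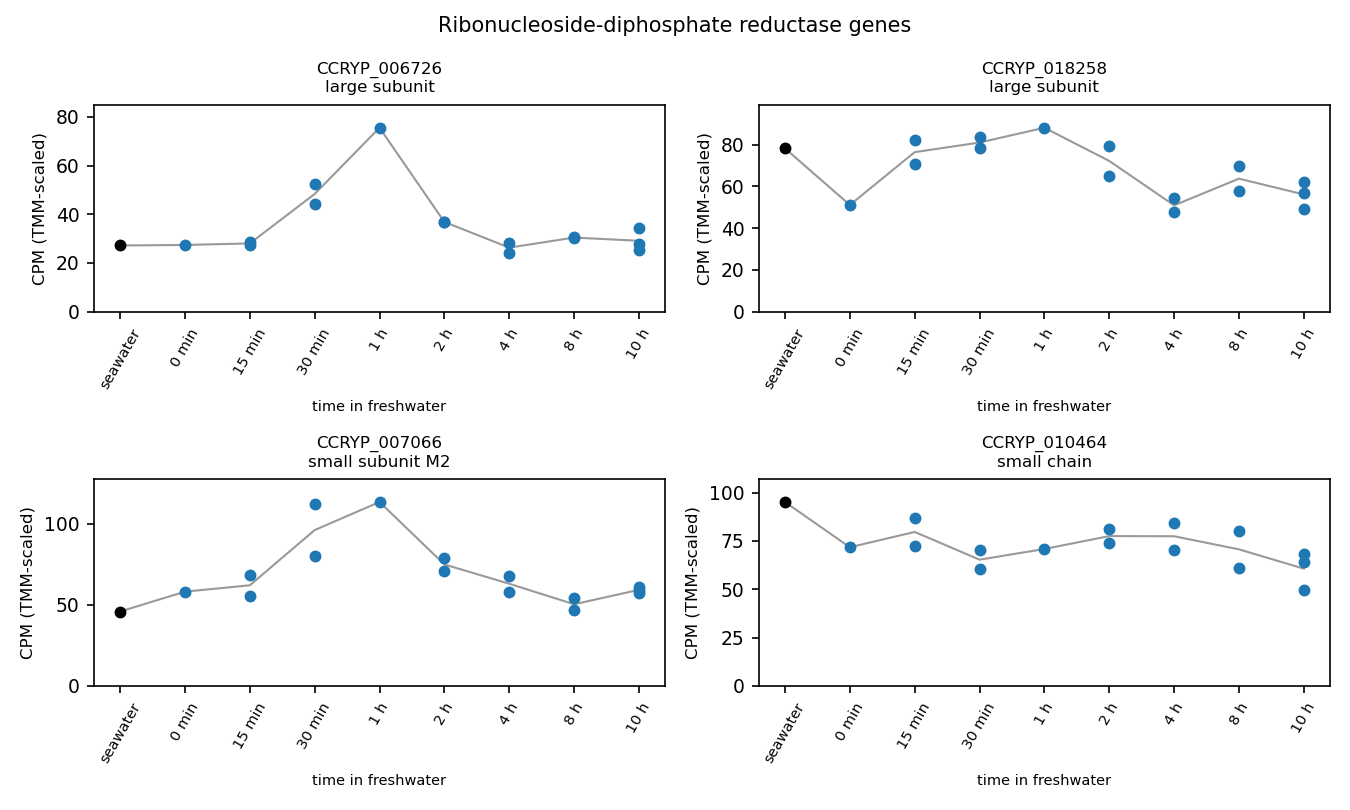
CPM (y axis, TMM-scaled, from 0) of the 4 ribonucleoside-diphosphate reductase genes in the seawater control (black) and at 8 times in freshwater (blue). Each point is 1 independent column and the grey line joins group means. CCRYP_006726 and CCRYP_007066, on the left, peak at 30 min and 1 h. CCRYP_018258, upper right, is also highest at 1 h, at 88.1 CPM, but its seawater value is 78.2 CPM. CCRYP_010464, lower right, is highest in seawater.

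Replication protein A binds single-stranded DNA as a complex of 3 subunits, of which the 70 kDa subunit makes most of the contacts. The gene of its 32 kDa subunit, CCRYP_004653, had the smallest adjusted p of the 99 genes at 30 min. It had 7.55 CPM in seawater, 18.5 at 0 min, 11.5 and 12.7 at 15 min, 34.6 and 24.7 at 30 min, 28.8 at 1 h, 16.6 and 15.2 at 2 h, 15.4 and 16.4 at 4 h, 10.3 and 15.9 at 8 h, and 13.8, 10.6 and 10.8 at 10 h. The 3 columns of 30 min and 1 h were above all others, the seawater control was below all others, and the 0 min column was the next highest after 30 min and 1 h. Its log2 fold change was 1.99 ± 0.37 at 30 min (adjusted p = 0.000843), 1.93 ± 0.41 at 1 h (adjusted p = 0.00333), 1.31 ± 0.27 at 30 min against 15 min (adjusted p = 0.00134) and -1.21 ± 0.26 at 8 h against 30 min (adjusted p = 0.000881). With the 0 min column as baseline in place of the single seawater column, the gene was not called at 30 min or 1 h. Without 15 min replicate 1, the adjusted p at 30 min against 15 min was 0.0507. The gene of the 70 kDa subunit, CCRYP_014790, had 85.7 and 69.9 CPM at 30 min and 94.5 at 1 h, against 52.8 CPM in the seawater control. It rose at 1 h, by 0.84 ± 0.25 on the log2 scale (adjusted p = 0.0250), and had 0.57 ± 0.22 at 30 min (adjusted p = 0.0551). At 8 h against 30 min it fell by 0.48 ± 0.18 (adjusted p = 0.0343), a call lost without 30 min replicate 2 or either 8 h column, with adjusted p of 0.262, 0.0639 and 0.223.

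Replication factor C is the clamp loader, made of 1 large subunit (subunit 1) and 4 small subunits. Subunit 5, CCRYP_018143, had 11.5 CPM in seawater, 12.9 at 0 min, 13.0 and 15.8 at 15 min, 25.4 and 23.6 at 30 min, 18.3 at 1 h, 23.0 and 19.1 at 2 h, 11.1 and 9.68 at 4 h, 8.21 and 9.61 at 8 h, and 8.96, 12.8 and 8.40 at 10 h. The 30 min columns were the highest, and the 1 h and 2 h columns stood above the remaining times. Its log2 fold change was 1.10 ± 0.34 at 30 min (adjusted p = 0.0169) and -1.47 ± 0.27 at 8 h against 30 min (adjusted p = 0.000224), the smallest adjusted p among the 99 genes in that comparison. Without 30 min replicate 2 the rise was 1.12 with an adjusted p of 0.0604. Subunit 4, CCRYP_011003, had 5.64 and 6.01 CPM at 8 h, against 13.7 and 11.1 CPM at 30 min, and fell by 1.11 ± 0.31 on the log2 scale (adjusted p = 0.00712). That call was lost without 30 min replicate 2 or 8 h replicate 2 (adjusted p = 0.0902 and 0.0573).

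Subunit 1, CCRYP_017940, went the other way. It had 114 CPM in seawater, 91.1 at 0 min, 107 and 97.5 at 15 min, 70.9 and 75.5 at 30 min, 83.3 at 1 h, 85.5 and 87.1 at 2 h, 96.2 and 91.9 at 4 h, 120 and 126 at 8 h, and 111, 109 and 102 at 10 h. The 30 min columns were the lowest and the 8 h columns the highest. It fell by 0.64 ± 0.19 on the log2 scale at 30 min (adjusted p = 0.0141) and was higher by 0.75 ± 0.16 at 8 h against 30 min (adjusted p = 0.000757). With library size alone the 30 min value was -0.39 (adjusted p = 0.171), and without 30 min replicate 2 it was -0.50 (adjusted p = 0.131). The count ratio of subunit 5 to subunit 1 was 0.220 to 0.358 in the 30 min and 1 h columns, against 0.0685 to 0.269 in the other 13, so the ranges overlapped. The ratio of the 32 kDa to the 70 kDa subunit of replication protein A was 0.3047 to 0.404, against 0.143 to 0.3046.

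The MCM2 to MCM7 proteins form the ring of the replicative helicase. MCM6, CCRYP_010728, was the one licensing gene that rose at 30 min and at 1 h. It had 18.4 CPM in seawater, 18.5 at 0 min, 20.0 and 23.9 at 15 min, 38.7 and 40.2 at 30 min, 39.6 at 1 h, 25.7 and 27.1 at 2 h, 21.0 and 19.7 at 4 h, 20.3 and 19.5 at 8 h, and 24.5, 17.6 and 17.4 at 10 h. The 30 min and 1 h columns stood close together and above all others. The log2 fold change was 1.10 ± 0.28 at 30 min (adjusted p = 0.00590), 1.10 ± 0.32 at 1 h (adjusted p = 0.0206), 0.85 ± 0.22 at 30 min against 15 min (adjusted p = 0.00753) and -0.98 ± 0.22 at 8 h against 30 min (adjusted p = 0.00127). Without 15 min replicate 1 the 30 min against 15 min value was 0.72 with an adjusted p of 0.132.

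MCM4, CCRYP_008993, a subunit of the same ring, lay between 74.9 and 107 CPM over the 16 columns and had a log2 fold change of 0.12 ± 0.20 at 30 min (adjusted p = 0.660). The count ratio of MCM6 to MCM4 was 0.376 to 0.402 in the 3 columns of 30 min and 1 h, against 0.188 to 0.288 in the other 13, without overlap. MCM3, CCRYP_012356, had 61.6 and 67.0 CPM at 8 h, against 102 and 94.0 CPM at 30 min, and fell by 0.61 ± 0.19 on the log2 scale in that comparison (adjusted p = 0.0126), a call lost without 30 min replicate 2 or 8 h replicate 2 (adjusted p = 0.0804 and 0.0917). A gene for the GINS subunit PSF1, CCRYP_019614, had low counts, between 1 and 43 reads a column. Its 1 h column, at 0.339 CPM, was the lowest of the 16, unlike the 30 min columns. It had 0.513 and 2.10 CPM at 8 h, against 5.20 and 5.55 CPM at 30 min. Its log2 fold change was -2.06 ± 0.61 (adjusted p = 0.0103), and -1.33 (adjusted p = 0.157) without 8 h replicate 2. The 10 licensing genes not called at 30 min ranged from -0.08 to 1.31 on the log2 scale, and 10 of the 11 were above the median of all genes.

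**Figure D4:**
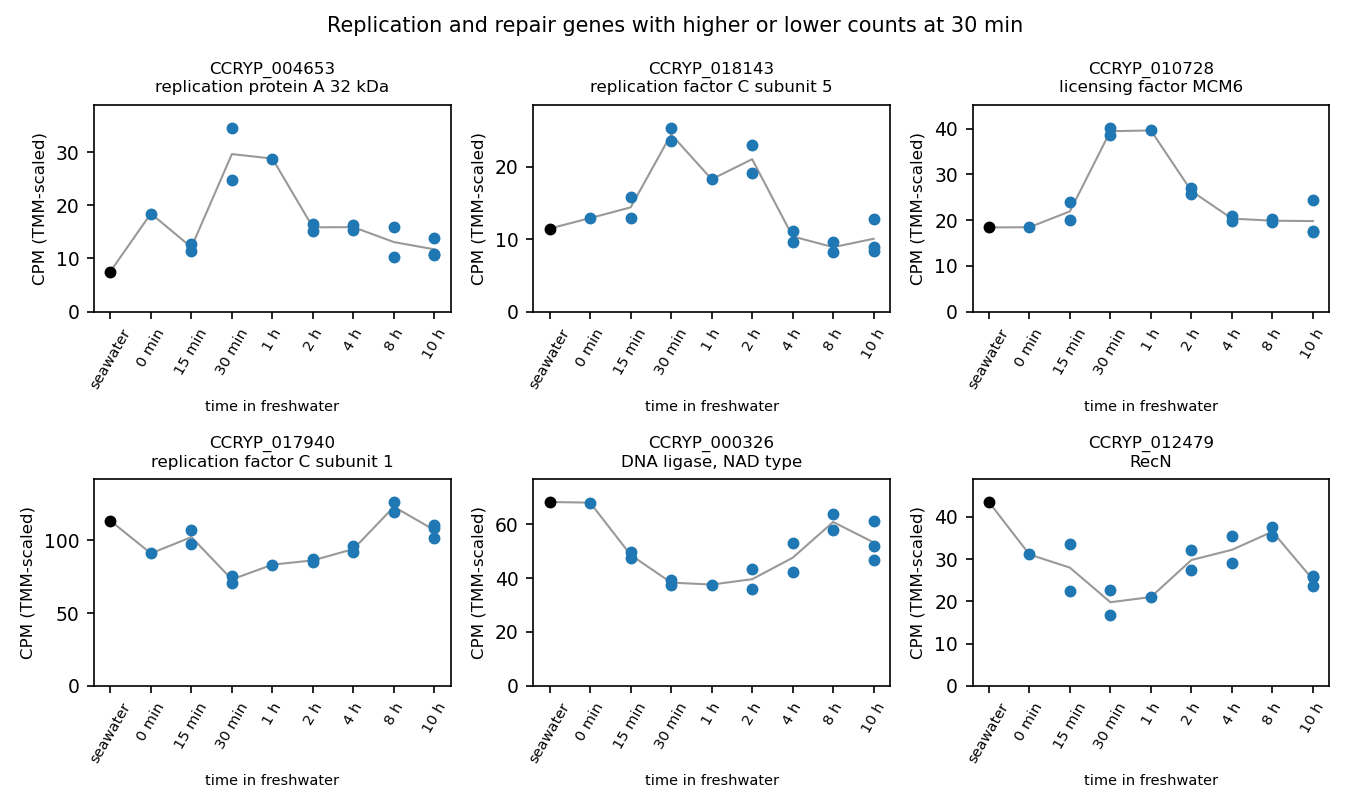
CPM (y axis, TMM-scaled, from 0) of 6 genes in the seawater control (black) and at 8 times in freshwater (blue). Each point is 1 independent column and the grey line joins group means. The upper genes, replication protein A 32 kDa, replication factor C subunit 5 and MCM6, have their highest points at 30 min. MCM6 is about level between 30 min and 1 h. The lower genes, replication factor C subunit 1, NAD-type ligase and RecN, are at or near their lowest at 30 min.

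Primase makes the RNA primers that start each new strand. Its small catalytic subunit, CCRYP_012044, had 12.7 CPM in seawater, 25.2 at 0 min, 25.1 and 30.5 at 15 min, 38.6 and 33.3 at 30 min, 36.6 at 1 h, 26.4 and 30.0 at 2 h, 31.8 and 27.5 at 4 h, 15.1 and 18.0 at 8 h, and 36.5, 20.1 and 18.1 at 10 h. The seawater column was below every freshwater column, and 1 of the 3 columns at 10 h reached the 30 min level. The log2 fold change of this subunit was 1.51 ± 0.37 at 30 min (adjusted p = 0.00397), 1.53 ± 0.41 at 1 h (adjusted p = 0.0138) and -1.13 ± 0.27 at 8 h against 30 min (adjusted p = 0.00251). The large subunit, CCRYP_016557, had 19.7 and 20.5 CPM at 30 min, against 9.66 CPM in the seawater control, and rose by 1.05 ± 0.37 on the log2 scale (adjusted p = 0.0346). That call was lost without either 30 min column, with an adjusted p of 0.0718 without replicate 2 and 0.0755 without replicate 3.

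DNA polymerase epsilon, which copies the leading strand in yeast, was represented by its catalytic subunit CCRYP_017887, at 55.3 CPM in seawater, 58.5 at 0 min, 78.3 and 82.5 at 15 min, 108 and 103 at 30 min, 118 at 1 h, 92.3 and 82.0 at 2 h, 105 and 84.9 at 4 h, 71.6 and 59.2 at 8 h, and 85.3, 80.4 and 86.6 at 10 h. The seawater and 0 min columns were the lowest, and 1 column at 4 h lay within the 30 min range. The gene rose by 0.94 ± 0.22 on the log2 scale at 30 min (adjusted p = 0.00307), by 1.09 ± 0.25 at 1 h (adjusted p = 0.00470) and by 0.78 ± 0.22 at 4 h (adjusted p = 0.0439). The 4 h call was lost without 4 h replicate 2, at 0.62 and an adjusted p of 0.298, and without 15 min replicate 1 or 3, 30 min replicate 3, 8 h replicate 3 or 10 h replicate 1, with adjusted p from just above 0.05 to 0.0631. Its count ratio to the catalytic subunit of DNA polymerase alpha, CCRYP_020658, was 1.15 to 1.47 in the 30 min and 1 h columns, against 0.483 to 1.08 in the other 13, without overlap. CCRYP_020658 itself was not called, with a log2 fold change of -0.40 ± 0.21 at 30 min (adjusted p = 0.137).

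Of the accessory subunits of polymerase epsilon, subunit 3, CCRYP_016013, had 17.9 and 17.8 CPM at 30 min, against 8.76 CPM in the seawater control, and rose by 1.02 ± 0.36 on the log2 scale (adjusted p = 0.0351), with adjusted p of 0.0815 and 0.0692 without 30 min replicate 2 and 3. Subunit B, CCRYP_004566, had 26.4 CPM at 1 h, against 9.66 CPM in the seawater control, and rose there by 1.45 ± 0.47 (adjusted p = 0.0354). That call, between 1 column and 1 column, was lost with the mean of 3 columns for these groups (adjusted p = 0.0582) and with DESeq2 (adjusted p = 0.0610). At 30 min its columns were apart, at 19.6 and 11.1 CPM. Subunit 2 of polymerase delta, the enzyme of the lagging strand, CCRYP_011245, had 7.55 CPM in seawater, 8.92 at 0 min, 9.68 and 13.5 at 15 min, 18.5 and 15.3 at 30 min, 25.7 at 1 h, 13.9 and 11.2 at 2 h, 11.1 and 8.56 at 4 h, 10.0 and 7.21 at 8 h, and 12.7, 9.49 and 11.9 at 10 h. All columns of 30 min and 1 h were above the rest. It rose by 1.17 ± 0.39 at 30 min (adjusted p = 0.0241) and by 1.77 ± 0.43 at 1 h (adjusted p = 0.00741), and the 30 min adjusted p was 0.0980 without 30 min replicate 2.

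A pair of other polymerases fell at 30 min. Polymerase zeta, which extends past DNA lesions, had 76.7 and 66.6 CPM for its catalytic subunit CCRYP_000678 at 30 min, against 105 CPM in the seawater control, and fell by 0.54 ± 0.20 on the log2 scale (adjusted p = 0.0418). That was the weakest of the 20 calls, with a log2 value of -0.57 (adjusted p = 0.106) without 30 min replicate 2, -0.48 (adjusted p = 0.128) without replicate 3, and adjusted p of 0.0533 to 0.0558 without 8 h replicate 2 or 3 or 10 h replicate 1. CCRYP_011282, 1 of 2 genes named for the chloroplastic DNA polymerase I A of plants and named here after its values were seen, had 29.2 and 32.2 CPM at 30 min, against 54.7 CPM in the seawater control, and fell by 0.84 ± 0.28 (adjusted p = 0.0266). That call was lost without 30 min replicate 2 and with library size alone. The gene had 30.4, 37.1 and 59.5 CPM at 10 h and did not differ over the 9 groups (adjusted p = 0.217). DNA polymerase I, CCRYP_000505, had 52.6 and 61.9 CPM at 8 h, against 39.3 and 39.4 CPM at 30 min, and was higher by 0.54 ± 0.19 (adjusted p = 0.0319), a call lost without either 30 min column or 8 h replicate 3 (adjusted p = 0.0776 to 0.224). Polymerase kappa, a translesion enzyme, CCRYP_006817, had 22.3 and 22.2 CPM at 8 h, against 32.9 and 41.9 CPM at 30 min. It fell by 0.73 ± 0.22 at 8 h against 30 min (adjusted p = 0.0115), lost without 30 min replicate 3 or either 8 h column (adjusted p = 0.0598 to 0.108), and had 0.41 ± 0.27 at 30 min against the seawater control (adjusted p = 0.246). It had 41.1, 42.4 and 32.9 CPM at 10 h and rose by 0.79 ± 0.20 at 10 h against 8 h (adjusted p = 0.0277), lost without 1 of either 8 h column or of 10 h replicate 1 or 2 (adjusted p = 0.0776 to 0.238).

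Ligases seal nicks in DNA, and topoisomerases relieve the twist that unwinding creates. Their median log2 fold change at 30 min was 0.024, below that of all genes. The NAD-type ligase CCRYP_000326, of the kind known from bacteria, had 68.2 CPM in seawater, 68.0 at 0 min, 47.5 and 49.7 at 15 min, 37.3 and 39.4 at 30 min, 37.6 at 1 h, 35.8 and 43.4 at 2 h, 42.3 and 52.8 at 4 h, 58.0 and 63.7 at 8 h, and 46.8, 51.9 and 61.0 at 10 h. The seawater and 0 min columns were the highest, and 30 min to 2 h held the lowest. It fell by 0.84 ± 0.22 on the log2 scale at 30 min (adjusted p = 0.00718), by 0.86 ± 0.27 at 1 h (adjusted p = 0.0316) and by 0.79 ± 0.23 at 2 h (adjusted p = 0.0465). The 30 min call was lost without 30 min replicate 2 (adjusted p = 0.0795). The 2 h value was -0.65 without 2 h replicate 1 (adjusted p = 0.246), and its adjusted p was 0.0529 to 0.0592 without 1 of 7 other columns, namely either of 15 min, 30 min replicate 2, either of 8 h, and 10 h replicate 1 or 2. The other ligase named by its level, DNA ligase 1, CCRYP_004825, lay between 71.7 and 104 CPM over the 16 columns, with 0.10 ± 0.21 at 30 min (adjusted p = 0.746). A second gene with the plain name DNA ligase, CCRYP_004336, did not share the fall of CCRYP_000326. It had 23.25 CPM in seawater, 24.6 and 22.7 at 30 min and 22.4 at 1 h, and was not called at 30 min, 1 h or 2 h.

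Topoisomerase 3-beta, CCRYP_020500, had 353 CPM in seawater, 297 at 0 min, 410 and 366 at 15 min, 258 and 241 at 30 min, 232 at 1 h, 286 and 300 at 2 h, 387 and 365 at 4 h, 389 and 377 at 8 h, and 411, 436 and 404 at 10 h. The 30 min and 1 h columns were the lowest and the 10 h columns among the highest. Against the seawater control the 30 min value of -0.50 ± 0.20 had an adjusted p of 0.0568. It fell by 0.64 ± 0.17 at 30 min against 15 min (adjusted p = 0.00751) and was higher by 0.62 ± 0.17 at 8 h against 30 min (adjusted p = 0.00552). The first of these was lost without 15 min replicate 1 (adjusted p = 0.116) or 30 min replicate 2 (adjusted p = 0.0553). A gene named DNA topoisomerase 2, CCRYP_004548, had too few counts to be tested.

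In mismatch repair, MutS-type proteins find the mispaired base and recruit the enzymes that replace it. Of 7 genes, 6 had a log2 fold change above that of all genes at 30 min, and the median was 0.57, but 1 was called. That gene, CCRYP_001140, carries the name of MSH5, which acts in meiotic crossing over and not in mismatch correction in yeast and animals. It had 0.604 CPM in seawater, 0.923 at 0 min, 0.605 and 2.31 at 15 min, 4.96 and 4.99 at 30 min, 2.71 at 1 h, 4.39 and 3.25 at 2 h, 1.23 and 2.98 at 4 h, 0.257 and 0.601 at 8 h, and 1.09, 0.279 and 0.700 at 10 h. The columns of 30 min were the highest and those of 8 h among the lowest, all of them at low counts, between 1 and 41 reads a column. It rose by 2.98 ± 0.99 on the log2 scale at 30 min (adjusted p = 0.0249) and fell by 3.48 ± 0.79 at 8 h against 30 min (adjusted p = 0.00149). Without 30 min replicate 2 the rise had an adjusted p of 0.0688. Msh6, CCRYP_004013, had 0.57 ± 0.24 at 30 min (adjusted p = 0.0729).

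Photolyases use light to split pyrimidine dimers made by ultraviolet radiation. Of the 3 photolyase genes, CCRYP_010374 had 3.62 CPM in seawater, 2.77 at 0 min, 2.42 and 5.78 at 15 min, 6.29 and 7.49 at 30 min, 11.2 at 1 h, 4.73 and 1.45 at 2 h, 3.08 and 2.61 at 4 h, 2.05 and 3.00 at 8 h, and 4.15, 1.67 and 3.64 at 10 h. The 30 min and 1 h columns were the highest, but against the seawater control the log2 values of 0.90 ± 0.64 at 30 min and 1.62 ± 0.71 at 1 h were not called (adjusted p = 0.288 and 0.112). It fell by 1.43 ± 0.53 at 8 h against 30 min (adjusted p = 0.0362), a call lost without any 1 of the 4 columns compared (adjusted p = 0.0828 to 0.197). The genes CCRYP_008092 and CCRYP_014187 lay between 46.6 and 68.8 CPM and between 24.6 and 39.8 CPM, with -0.21 ± 0.21 and 0.27 ± 0.28 at 30 min (adjusted p = 0.473 and 0.481).

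Among the 34 other repair genes, 5 were called at 30 min, 2 higher and 3 lower, which is 14.7% of them where the background was 30.7%. The gene named alkB homolog 8, CCRYP_005984, whose namesake in mammals modifies transfer RNA, had 9.06 CPM in seawater, 12.3 at 0 min, 8.77 and 15.8 at 15 min, 18.5 and 18.6 at 30 min, 26.8 at 1 h, 10.1 and 11.6 at 2 h, 9.56 and 7.44 at 4 h, 8.21 and 7.21 at 8 h, and 14.9, 13.1 and 14.0 at 10 h. The 30 min and 1 h columns were above all others. It rose by 1.03 ± 0.37 on the log2 scale at 30 min (adjusted p = 0.0355) and by 1.56 ± 0.41 at 1 h (adjusted p = 0.0120), and fell by 1.26 ± 0.29 at 8 h against 30 min (adjusted p = 0.00179). Without 30 min replicate 2 or 3, the 30 min adjusted p was 0.0792 or 0.0709.

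RecN, a bacterial protein of double-strand break repair, CCRYP_012479, had 43.5 CPM in seawater, 31.1 at 0 min, 33.6 and 22.4 at 15 min, 16.8 and 22.7 at 30 min, 21.0 at 1 h, 27.4 and 32.2 at 2 h, 29.0 and 35.4 at 4 h, 35.4 and 37.5 at 8 h, and 25.8, 23.7 and 25.9 at 10 h. The seawater control was the highest column, and the 30 min and 1 h columns overlapped only 1 column at 15 min. It fell by 1.16 ± 0.27 on the log2 scale at 30 min (adjusted p = 0.00276), by 1.05 ± 0.33 at 1 h (adjusted p = 0.0298) and by 0.79 ± 0.25 at 10 h (adjusted p = 0.0474). Without 30 min replicate 2 the 30 min value was -0.85 (adjusted p = 0.0706). The 10 h call was lost without any 1 of 30 min replicate 2, 8 h replicate 2 or 3, or 10 h replicate 1 or 2 (adjusted p = 0.0547 to 0.105). RadA, a bacterial recombination protein, CCRYP_020166, had 42.3 and 44.9 CPM at 30 min, against 71.6 CPM in the seawater control, and fell by 0.72 ± 0.22 (adjusted p = 0.0166). The 0 min column of RadA, at 45.8 CPM, was already near its 30 min level, while its 15 min columns had 67.4 and 71.3 CPM. REV1 is a translesion protein that works with polymerase zeta. A gene of that name, CCRYP_021090, had 9.96 CPM in seawater, 7.38 and 10.3 at 30 min and 9.15 at 1 h. It did not differ over the 9 groups (adjusted p = 0.876). Another REV1 gene, CCRYP_007848, had 20.0 and 22.5 CPM at 30 min and 16.9 CPM at 1 h, against 34.4 CPM in the seawater control. It fell by 0.71 ± 0.25 at 30 min (adjusted p = 0.0351) and by 1.02 ± 0.32 at 1 h (adjusted p = 0.0284). Without 30 min replicate 2 the 30 min values of RadA and CCRYP_007848 were -0.59 and -0.53, and both calls were lost. With library size alone they were -0.46 and -0.45 (adjusted p = 0.140 and 0.225).

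At 8 h against 30 min, 7 of the 34 other repair genes were called, 2 higher and 5 lower, which is 20.6% of them where the background was 35.6%. At 10 h 2 were lower than in the seawater control, and 1 was higher at 10 h than at 8 h. RAD23b, a ubiquitin receptor that also takes part in nucleotide excision repair, CCRYP_002739, had 40.0, 37.4 and 54.9 CPM at 10 h, against 78.5 CPM in the seawater control, and fell by 0.82 ± 0.21 on the log2 scale (adjusted p = 0.0217). Without 10 h replicate 1 or 2 its adjusted p was 0.0806 or 0.0647. RAD16, a protein of nucleotide excision repair in yeast, CCRYP_000055, had 189, 179 and 185 CPM at 10 h, against 116 and 133 CPM at 8 h, and rose by 0.56 ± 0.15 (adjusted p = 0.0386). The columns did not overlap, but the call was lost when any 1 of 7 columns was left out, those of 15 min, 8 h and 10 h (adjusted p = 0.0513 to 0.276). A helicase gene named PIF1, CCRYP_001645, had 38.1 and 31.6 CPM at 30 min, against 21.8 and 20.4 CPM at 15 min. It rose by 0.73 ± 0.24 (adjusted p = 0.0276), a call lost without either 15 min column or 30 min replicate 2. Of the other genes named PIF1, CCRYP_011664 had 11.6 and 10.3 CPM at 30 min, against 16.0 and 8.48 CPM at 15 min. CCRYP_018295 had 26.1 and 28.9 CPM at 30 min, against 21.2 and 20.8 CPM at 15 min. RAD52, a recombination mediator, CCRYP_010852, named after its values were seen, had 0 reads in both 8 h columns, against 10 and 14 reads in the 30 min columns, where its levels were 1.21 and 3.88 CPM, and fell at 8 h against 30 min (adjusted p = 0.0102). RAD5, CCRYP_012323, a protein of post-replication repair in yeast, lay between 67.4 and 107 CPM and was not called in any comparison.

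Some of the calls given above were also lost with another tool or scaling. DESeq2 did not call CCRYP_005984, CCRYP_007848, CCRYP_011245, CCRYP_016013 or CCRYP_016557 at 30 min (adjusted p = 0.0595 to 0.0883). Nor did it call CCRYP_001645 at 30 min against 15 min (adjusted p = 0.0578), CCRYP_010374 or CCRYP_014790 at 8 h against 30 min (adjusted p = 0.0909 and 0.0913), or CCRYP_012479 at 10 h (adjusted p = 0.0920). With library size alone, the falls of CCRYP_000326 and CCRYP_000678 at 30 min had adjusted p of 0.0701 and 0.355. Those of CCRYP_000326, CCRYP_007848 and CCRYP_012479 at 1 h had 0.0895, 0.0816 and 0.0662. Under the same scaling the fall of CCRYP_020500 at 30 min against 15 min had an adjusted p of 0.108. Those of CCRYP_002739 and CCRYP_012479 at 10 h had 0.0676 and 0.132. The rises of CCRYP_000505 at 8 h against 30 min, CCRYP_017887 at 4 h and CCRYP_000055 at 10 h against 8 h had 0.0861, 0.0554 and 0.0576. Limma-voom did not call CCRYP_016557 at 30 min, CCRYP_000326 at 2 h, CCRYP_017887 at 4 h or CCRYP_012479 at 10 h (adjusted p = 0.0509 to 0.0628). With the mean of 3 columns for seawater, 0 min and 1 h, CCRYP_000678 at 30 min and CCRYP_012479 at 10 h had adjusted p of 0.0592 and 0.0570. Without a low-count filter CCRYP_000678 had 0.0559. With DESeq2 size factors CCRYP_012479 at 10 h and CCRYP_014790 at 8 h against 30 min had 0.0546 and 0.0573. In all, 58 of the 99 genes were called neither over the 9 groups nor in any of the 11 comparisons.

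**Figure D5:**
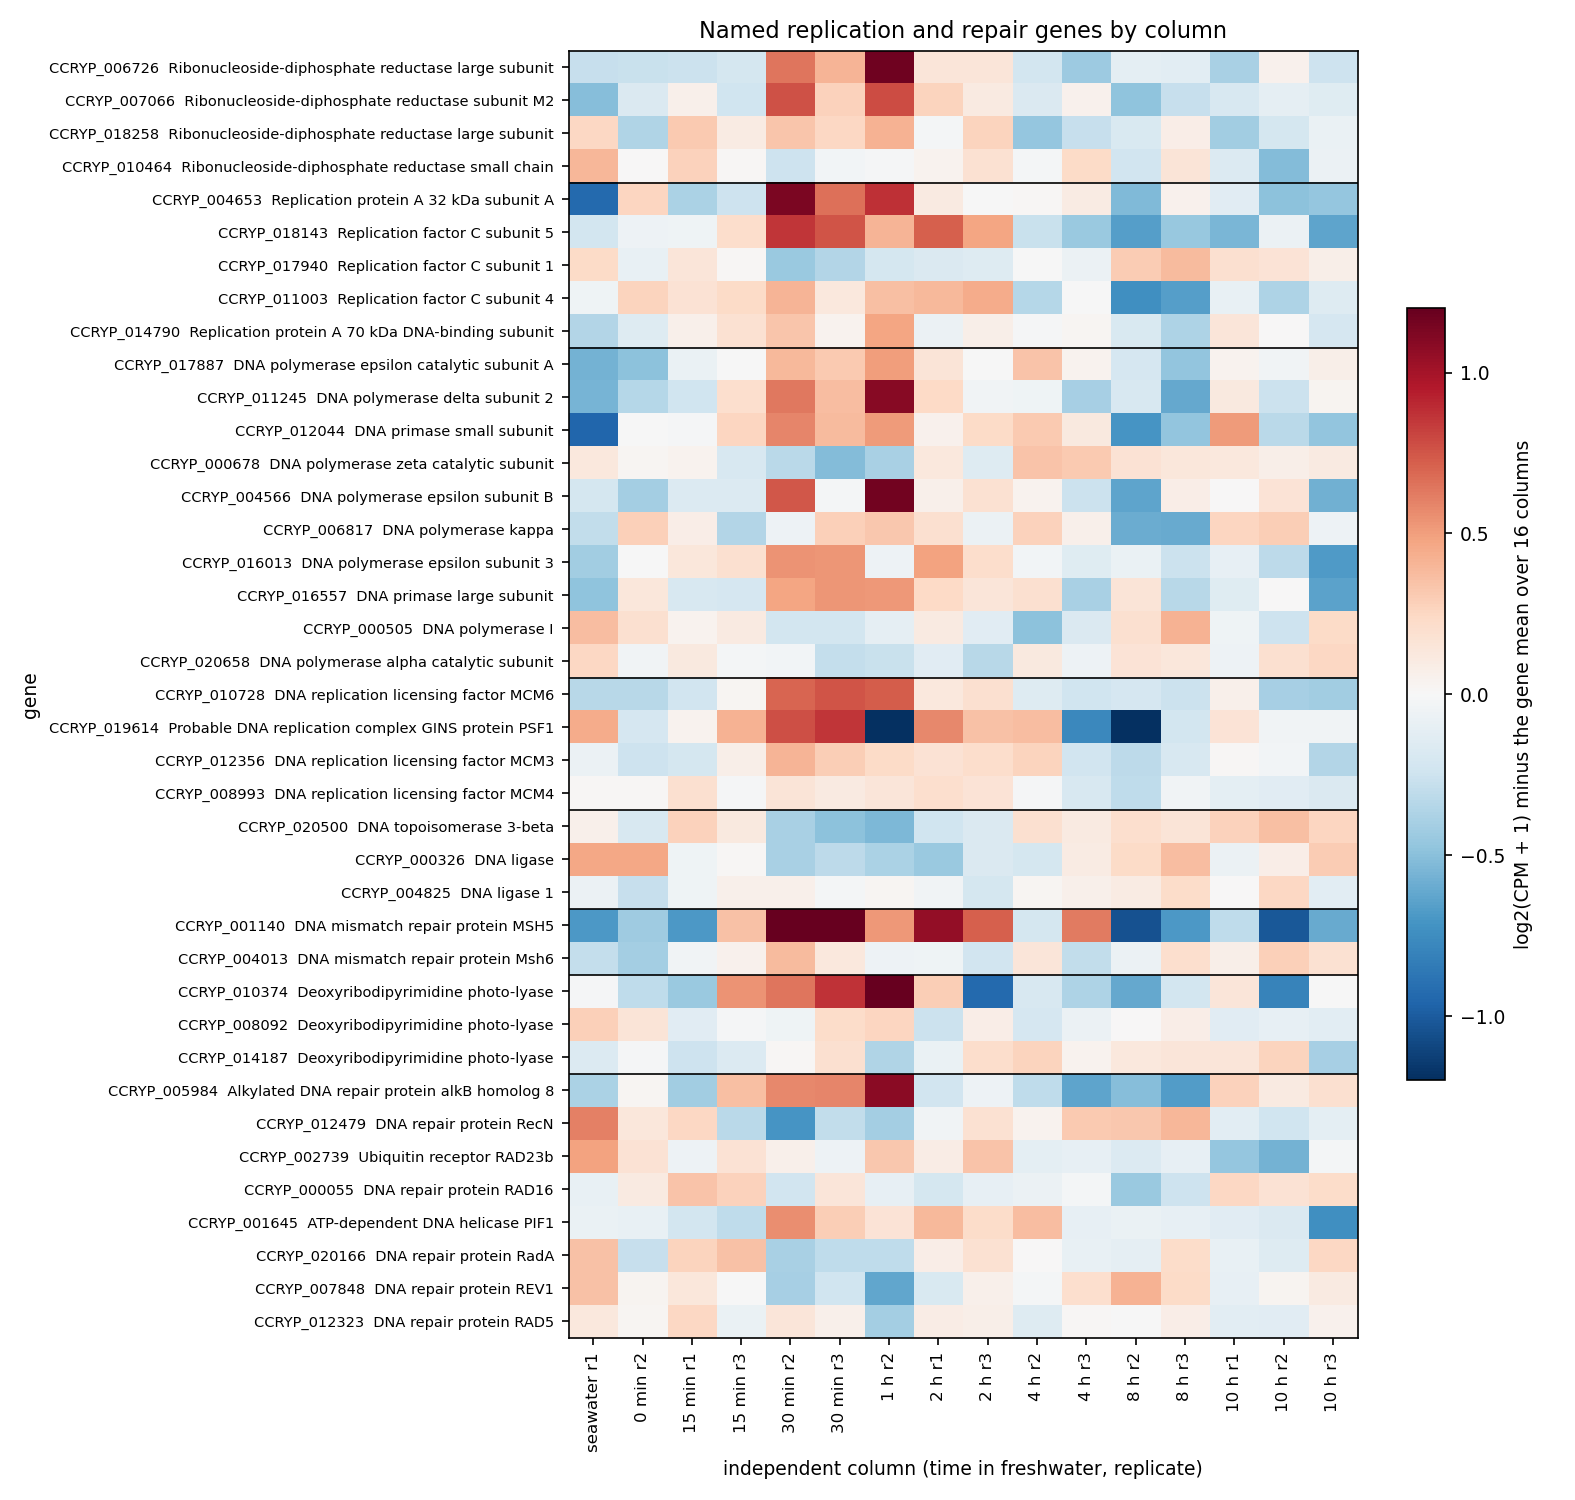
Log2(CPM + 1) minus the mean of each gene over the 16 independent columns (colour, limited to ±1.2) for 39 genes named by the rule (rows, grouped by role, with lines between roles) in each column (x axis, seawater control first, then time in freshwater). Red is above the mean of the gene and blue below it. The 30 min and 1 h columns are red for CCRYP_006726, CCRYP_004653 and CCRYP_010728 and blue for CCRYP_017940, CCRYP_020166 and CCRYP_007848.

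A second list of 79 genes, 78 of them tested, was drawn by other words for the same processes. Since its words were matched anywhere in a name, it also holds genes of purine synthesis and RNA decay. At 30 min the higher calls include CCRYP_002001, CCRYP_002958 and CCRYP_013022 of purine synthesis. They also include CCRYP_005935, CCRYP_007489 and CCRYP_014356 of RNA decay, and the lower calls include CCRYP_011114 of RNA decay. The counts below are therefore not of replication and repair genes alone. At 30 min 12 were higher and 6 lower, or 23.1% called against a background of 30.7%. At 1 h 13 were higher and 4 lower, or 21.8% against 18.4%. The medians at 30 min and 1 h were 0.30 and 0.29 on the log2 scale. At 8 h against 30 min 4 were higher and 19 lower, or 29.5% against a background of 35.6%. The sliding clamp PCNA, CCRYP_011510, which replication factor C loads, rose by 0.89 ± 0.27 at 30 min (adjusted p = 0.0148) and by 0.93 ± 0.31 at 1 h (adjusted p = 0.0348), and fell by 1.24 ± 0.21 at 8 h against 30 min (adjusted p = 0.000105). The FAS2 subunit of chromatin assembly factor 1, CCRYP_004139, which places histones on new DNA, rose by 2.51 ± 0.50 at 30 min (adjusted p = 0.00125). The bacterial-type recombinase RecA, CCRYP_004338, fell by 0.81 ± 0.21 (adjusted p = 0.00641), as did the gyrase subunits CCRYP_007498, by 0.71 ± 0.22 (adjusted p = 0.0164), and CCRYP_019940, by 0.80 ± 0.22 (adjusted p = 0.00876). These 5 genes were picked from the list after their values were seen.

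The authors' deposited table of comparisons with 0 min gives an adjusted p for 82 of the 100 genes. It lists the other 18 at a fold change of 0 with no adjusted p, and 5 of the 7 mismatch repair genes are among them. Its fold changes have the reverse sign: for CCRYP_006726 at 1 h the authors' deposited table has -1.55 on the log2 scale, where the counts are higher at 1 h than at 0 min. In a fit of all 27 columns, the 30 min fold change of each of the 55 replication and repair genes called by the authors' deposited table ran the other way.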

How the data were processed

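The authors deposited raw gene counts for 27 columns, and log2 fold changes with adjusted p-values against 0 min. The labels' protocols name a KAPA mRNA kit, and the submitters' processing notes name STAR 2.7.3a, HTSeq 0.11.3 and edgeR. The sources used here give no genome build, annotation or strand setting, so overlapping, antisense and near-identical genes are uncertain. Summary rows stayed out of library sizes and tests. Reads not placed uniquely were 15.9% to 34.1% of gene counts and such reads together. Columns matched to no sample numbered 0. No gene ID matched the 14109 reference genes (0 matches), so no coordinates are given.

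The 16 independent columns were scaled by TMM, and the 12501 genes passing filterByExpr (minimum count 10, minimum total 15) went into 1 robust quasi-likelihood fit in edgeR 4.0.16 under R 4.3.3, with a coefficient for each group, 7 residual degrees of freedom and Benjamini-Hochberg adjustment over all genes. Groups with 1 column were assumed to vary like the others. Standard errors came from the F statistic. The fit was tested on simulated data. Alternatives included DESeq2 1.42.0 and limma-voom (limma 3.58.1).

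The genes and lists were chosen with earlier results of these data known. Named were at most 30 called genes by smallest adjusted p over the 9 groups, the 2 genes of highest mean CPM in each role, and every photolyase and reductase. Results for some genes are not reported here.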

Additional observations from a re-analysis of the deposited data

How the results depend on the processing

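None of the 71 called values of named genes changed sign under any of the 22 alternatives fitted to them, and 173 of 1560 such values lost their call. The number of the 99 genes called moved more. With all 27 columns taken as independent, which copies and means inflate, it was 94 over the 9 groups, 24 and 20 at 0 and 15 min, 67 at 30 min and 60 at 1 h, then 48, 38, 18 and 39 in the 2 h, 4 h, 8 h and 10 h groups, and 58 at 30 min against 15 min, 65 at 8 h against 30 min and 21 at 10 h against 8 h. DESeq2 gave 18 over the 9 groups, 1 at 10 h and 7 at 30 min against 15 min. It called 7.4% of all genes at 10 h and 19.9% at 30 min against 15 min. Limma-voom gave 0 at 2 h, 0 at 4 h and 1 at 10 h, and DESeq2 size factors, or the mean of 3 columns for seawater, 0 min and 1 h, gave 1 at 10 h. No low-count filter gave 2 at 2 h, 3 at 4 h and 4 at 10 h, and library size alone 24 at 30 min against 15 min and 1 at 10 h against 8 h. The 0 min column as baseline gave 4 at 30 min, 7 in the 1 h group and 0 in each of the 2 h, 4 h and 10 h groups. With library size alone, 25.4% of all genes were called at 30 min against 15 min and 3.3% at 10 h against 8 h. Shares of all genes are not given beside most counts here and in the paragraphs below. Those counts alone do not tell a shift of these genes from a shift of all genes tested. The cause of these shifts was not tested.

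Of the 24 same-numbered pairs of columns from different groups, 8 deviated together with a correlation above 0.1. All 8 were among the 10 pairs within 2 h to 10 h (r from 0.0844 to 0.357), and the other 14 had r from -0.163 to 0.0638. Since not every pair was above 0.1 and the labels name no shared source, the numbers were not taken to pair the samples. With the replicate number as a replicate block, 13 genes were called at 30 min, 7 and 4 in the 1 h and 2 h groups, and 35 at 8 h against 30 min, and 19 of the 71 called values of named genes were not called.

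Leaving out 1 column at a time gave 17 to 33 genes over the 9 groups, 6 to 25 at 30 min, and 13 to 15 in the 1 h group, 0 to 2 in the 2 h group, 0 to 7 in the 4 h group and 0 to 5 in the 10 h group, with 0 to 13 at 30 min against 15 min, 15 to 34 at 8 h against 30 min and 0 to 2 at 10 h against 8 h, and 0 at 0 min, 15 min and 8 h. Over the 9 groups it was 19 without 30 min replicate 3, 8 h replicate 3 or 10 h replicate 1, and the lowest without 30 min replicate 2. At 4 h the 7 came without 4 h replicate 3, as 3 higher and 4 lower, with 3 without 10 h replicate 3 and 0 without 4 h replicate 2, 8 h replicate 3 or either 15 min column. At 10 h, the 5 came without 10 h replicate 3, with 4 without either 4 h column, 1 without either 8 h column and 0 without 10 h replicate 1 or 2. At 30 min against 15 min it was 0 without 15 min replicate 1, 2 without 30 min replicate 2, and 7 without 15 min or 30 min replicate 3. At 8 h against 30 min it was 15 without 30 min replicate 2, and 16 and 17 without 8 h replicate 2 and 3. The seawater, 0 min and 1 h groups had 1 column and could not be left out in part.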
